A study of Mus musculus with 16 samples.

Results

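The antiviral TRIM genes described here are 9 mouse genes, *Trim12a*, *Trim12c*, *Trim30a*, *Trim30d*, *Trim34a*, *Trim5*, *Trim21*, *Trim14* and *Trim26*, found by their symbols among the 55416 genes of the count table, which holds 68 TRIM genes in all. They were chosen by the differences in read count between *Nprl3*-/- (KO) and *Nprl3*+/+ (wild type) libraries of the same data, so those differences are described below without a test. The study sequenced polyadenylated RNA from erythroblasts, the nucleated precursors of red blood cells, sorted by CD71 and Ter119 from mouse foetal livers at stage E13.5 as an early stage (S1) and a later, haemoglobinising stage (S3). Each of 8 embryos gave 1 library per stage, which makes 16 libraries. There were 4 wild-type embryos (numbers 1 and 5, female, and 0 and 8, male), 2 *Nprl3*+/- (Het) embryos (3 and 4, both male) and 2 KO embryos (2, female, and 9, male). Both alleles of KO embryos and 1 allele of Het embryos lack the *Nprl3* promoter in every tissue, while the α-globin enhancers inside the gene are intact. In bulk RNA of this kind, fewer cells of a type and less RNA per cell cannot be told apart.

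Most TRIM proteins are ubiquitin ligases with a RING domain, B-box domains and a coiled coil, followed in many by a PRY-SPRY domain that recognises the target; *Trim14* encodes one that lacks the RING domain. Many are induced by type I interferon, which signals through its receptor and JAK kinases to genes that carry a DNA element named ISRE, the interferon-stimulated response element. *Trim5*, *Trim12a* and *Trim12c* are the mouse relatives of primate TRIM5, a restriction factor that recognises retroviral capsids, and *Trim34a* belongs to the same gene cluster. *Trim30a* restrains NF-κB signalling from Toll-like receptors, and *Trim30d* is a close copy of it. *Trim21* is a cytosolic antibody receptor that sends antibody-coated virus to the proteasome, *Trim14* is an adaptor at the mitochondrial antiviral protein MAVS, and *Trim26* acts on IRF3 and NEMO in the sensing of viral RNA.

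Library totals ranged from 20666044 to 37609502 counts. *Nprl3* itself was at 26.7 ± 4.45 CPM (read count scaled to a common library total; SD, n = 4) in wild-type S1 libraries, at 12.7 and 13 in Het and at 0.319 and 0.676 in KO, whereas at S3 the values were 165 ± 27.2 (n = 4), 118 to 146 and 107 to 111. The log2 fold change of KO over wild type was -5.72 (SE 0.43, adjusted p = 0.0212) at S1 and -0.55 (SE 0.19, adjusted p = 0.381) at S3, so the gene checks the genotype labels at S1 only. The paper states that spliced, polyadenylated transcripts starting at the α-globin enhancers confound the measurement of *Nprl3* mRNA and encode no protein. Its promoter-specific PCR detected no *Nprl3* mRNA in KO cells. Counts per gene do not separate these transcripts, so the KO values at S3 cannot be read as *Nprl3* mRNA. The summed level of 13 erythroblast markers was 2037 to 8089 CPM over the S1 libraries and 115719 to 151072 CPM over the S3 libraries, with no marker at 0. The wild-type S1 libraries of embryos 0 and 8 stood apart from the other 6 S1 libraries, with 8089 and 7804 CPM of erythroblast markers against 2037 to 3434, 205 and 116 CPM of 11 neutrophil markers against 1157 to 1709, and 315 and 279 CPM of 14 hepatoblast markers against 27.5 to 157. Embryos 0 and 8 are also the only wild-type males. Sex and this difference between libraries cannot be told apart within wild type at S1. Fold changes of the members that rest on these 2 S1 libraries are given with and without them, a choice made after the data were seen. Without them the S1 log2 fold change of *Nprl3* was -5.50 (adjusted p = 0.025). With 1 wild-type S1 library left out, the edgeR call held for embryos 1 and 8. It was lost for embryo 0 (-5.73, adjusted p = 0.152) and embryo 5 (-5.79, adjusted p = 0.0876). Without KO embryo 2 or 9 the value was -5.30 or -6.39.

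Promoter sequence is given first, since it uses no expression value. On mm39, the build of the count table, 6 members form a cluster on chromosome 7 that spans 263 kb (chr7:103893664-104157056): *Trim34a* on the plus strand, then *Trim5*, *Trim12a*, *Trim12c*, *Trim30a* and *Trim30d* on the minus strand. *Trim21* lies on the same chromosome outside the cluster (chr7:102207128-102214693, minus strand), *Trim14* at chr4:46493781-46536141 (minus strand) and *Trim26* at chr17:37148026-37170290 (plus strand). RefSeq promoters of 300 bases (250 before the start base and 50 from it on; table build GRCm38.p6) were searched on both strands for the core of the ISRE, GAAANNGAAA or TTTCNNTTTC. It was found in 8 of the 8 members in the promoter table, against 1 of the 45 other TRIM genes there (*Trim2*) and 3.99% of the 27025 genes in the table. It was also found in 21 of 40 other interferon-stimulated genes with a promoter listed. The GAS motif of the interferon-γ pathway, TTCNNNGAA, which reads the same on both strands, was in 0 of 8 members and in 9.55% of those genes. The promoter of *Trim14* was not analysed here. A match is a description of letters and not evidence of binding.

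The stretches around the match are shown to compare the copies within the cluster, 40 bases each on the gene's own strand, with the ISRE core in capitals. The promoters they come from lie at chr7:103964653-103964952 (*Trim12a*), chr7:103937264-103937563 (*Trim5*), chr7:104002507-104002806 (*Trim12c*), chr7:104114351-104114650 and chr7:104095283-104095582 (the 2 listed starts of *Trim30a*) and chr7:104157007-104157306 (*Trim30d*), all on the minus strand of mm39.
Trim12a: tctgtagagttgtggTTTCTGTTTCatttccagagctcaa
Trim5: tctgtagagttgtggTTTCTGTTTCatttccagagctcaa
Trim12c: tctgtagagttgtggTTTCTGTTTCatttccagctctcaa
Trim30a, first start: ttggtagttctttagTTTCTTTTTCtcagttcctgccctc
Trim30a, second start: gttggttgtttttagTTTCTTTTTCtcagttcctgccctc
Trim30d: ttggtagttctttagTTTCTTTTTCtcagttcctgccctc
The *Trim12a* and *Trim5* stretches differed at 0 of 40 bases, and *Trim12c* differed from each at 2. *Trim30a* (first start) and *Trim30d* differed at 0 bases, while the second start of *Trim30a* differed from both at 7. Between these sets of copies, *Trim12a* and *Trim30a* (first start) differed at 20 of 40 bases. The whole 300-base *Trim5* promoter also occurs unaltered at chr7:103964594-103964893, over the start of *Trim12a*.

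Whole promoters are shown for *Trim34a*, which had the greatest difference between KO and wild type at S3, for *Trim21*, the member with the highest level per length in KO, and for *Trim26*, which holds the motif and was not higher in KO; they lie at chr7:103893414-103893713 (plus), chr7:102214640-102214939 (minus) and chr17:37147788-37148087 (plus) on mm39.
Trim34a: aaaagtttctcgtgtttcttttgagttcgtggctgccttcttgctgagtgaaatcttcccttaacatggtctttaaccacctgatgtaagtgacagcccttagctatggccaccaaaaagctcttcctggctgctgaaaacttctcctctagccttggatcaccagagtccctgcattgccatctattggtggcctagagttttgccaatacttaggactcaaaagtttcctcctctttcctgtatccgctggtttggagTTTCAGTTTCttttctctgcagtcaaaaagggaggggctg
Trim21: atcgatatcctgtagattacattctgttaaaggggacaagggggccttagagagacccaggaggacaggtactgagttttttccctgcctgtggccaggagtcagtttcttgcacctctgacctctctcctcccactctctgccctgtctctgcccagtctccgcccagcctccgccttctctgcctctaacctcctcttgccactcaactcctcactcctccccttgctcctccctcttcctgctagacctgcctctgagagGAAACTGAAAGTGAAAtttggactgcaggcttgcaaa
Trim26: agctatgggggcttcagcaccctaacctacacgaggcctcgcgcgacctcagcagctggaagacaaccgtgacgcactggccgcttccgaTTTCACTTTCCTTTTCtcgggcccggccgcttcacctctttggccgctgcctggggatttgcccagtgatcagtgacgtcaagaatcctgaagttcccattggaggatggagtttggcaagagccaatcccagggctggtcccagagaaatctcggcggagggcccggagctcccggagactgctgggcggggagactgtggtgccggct
In *Trim34a* the match ran from base 10 to base 19, counted with the start base as 0. *Trim21* held 2 overlapping matches, from 13 to 22 and from 19 to 28, on the gene strand. *Trim26* held 2 overlapping matches as well, but upstream, from -160 to -151 and from -154 to -145. In the other promoters the match began between -49 (*Trim5*) and 10 (*Trim12a*).

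**Figure D1:**
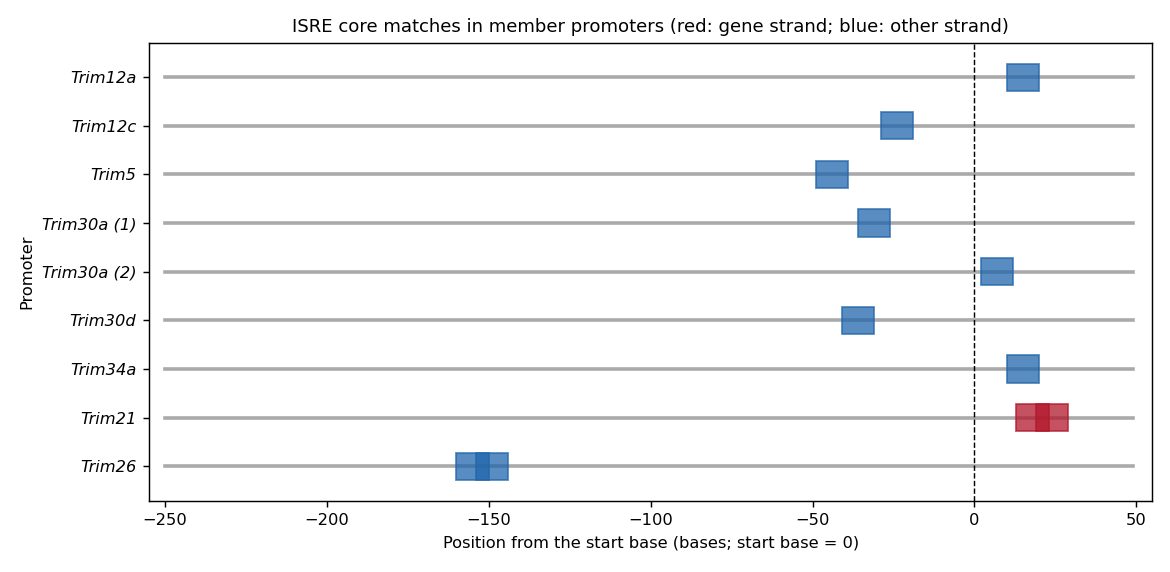
Position of each ISRE core match in the 300-base promoters of 8 members (x axis, bases from the start base; *Trim30a* has 2 starts). Red boxes lie on the gene strand and blue boxes on the other strand; the *Trim26* pair begins at -160 and -154, while every other match begins at -49 or later.

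Copies limit what can be counted here, since only uniquely placed read pairs entered the table. Of all 150-base stretches in a member's transcripts, 19.6% of those of *Trim34a* also occur in another gene (*Trim34b* or the predicted gene *Gm47248*), 18.7% of *Trim14* (*Nans* or *Gm16731*), 7.46% of *Trim30a*, 6.87% of *Trim12c*, 3.38% of *Trim5*, 3.07% of *Trim30d* and 1.57% of *Trim12a*. None of the *Trim21* and *Trim26* stretches (0%) did. *Trim14* exons overlap those of *Nans* on the other strand, and the counting did not use strand, so pairs from the overlap were given to neither gene. Levels of the copies are therefore lower limits, and *Trim34a* and *Trim14* are the least certain.

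Levels between members were compared as CPM per kilobase of exon. In wild-type S1 libraries *Trim21* was the most abundant at 2.72 ± 0.429 (SD, n = 4), and its lowest library (2.32) lay above the highest library of any other member. *Trim12c* (0.959), *Trim12a* (0.936), *Trim26* (0.868), *Trim30a* (0.756) and *Trim34a* (0.717) followed, with ranges over embryos that overlapped. *Trim14* (0.373), *Trim5* (0.196) and *Trim30d* (0.117) were lowest, and their ranges overlapped from each to the next. In wild-type S3 libraries *Trim26* led at 5.33 ± 1.21, but its range (3.56 to 6.24) overlapped that of *Trim21* (1.91 to 5.47). In KO S3 libraries the order was *Trim21* at 13.6, *Trim34a* at 9.63, *Trim12c* at 5.66, *Trim12a* at 4.75, *Trim26* at 4.48 and *Trim30a* at 1.13, followed by *Trim5*, *Trim14* and *Trim30d* (0.569, 0.0654 and 0.0492). Ranges of neighbours in this order overlapped except those of *Trim34a* and *Trim12c*, of *Trim26* and *Trim30a*, and of *Trim5* and *Trim14*. *Trim34a* was thus at rank 5 of the 9 members in wild type and at rank 2 in KO at this stage.

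**Figure D2:**
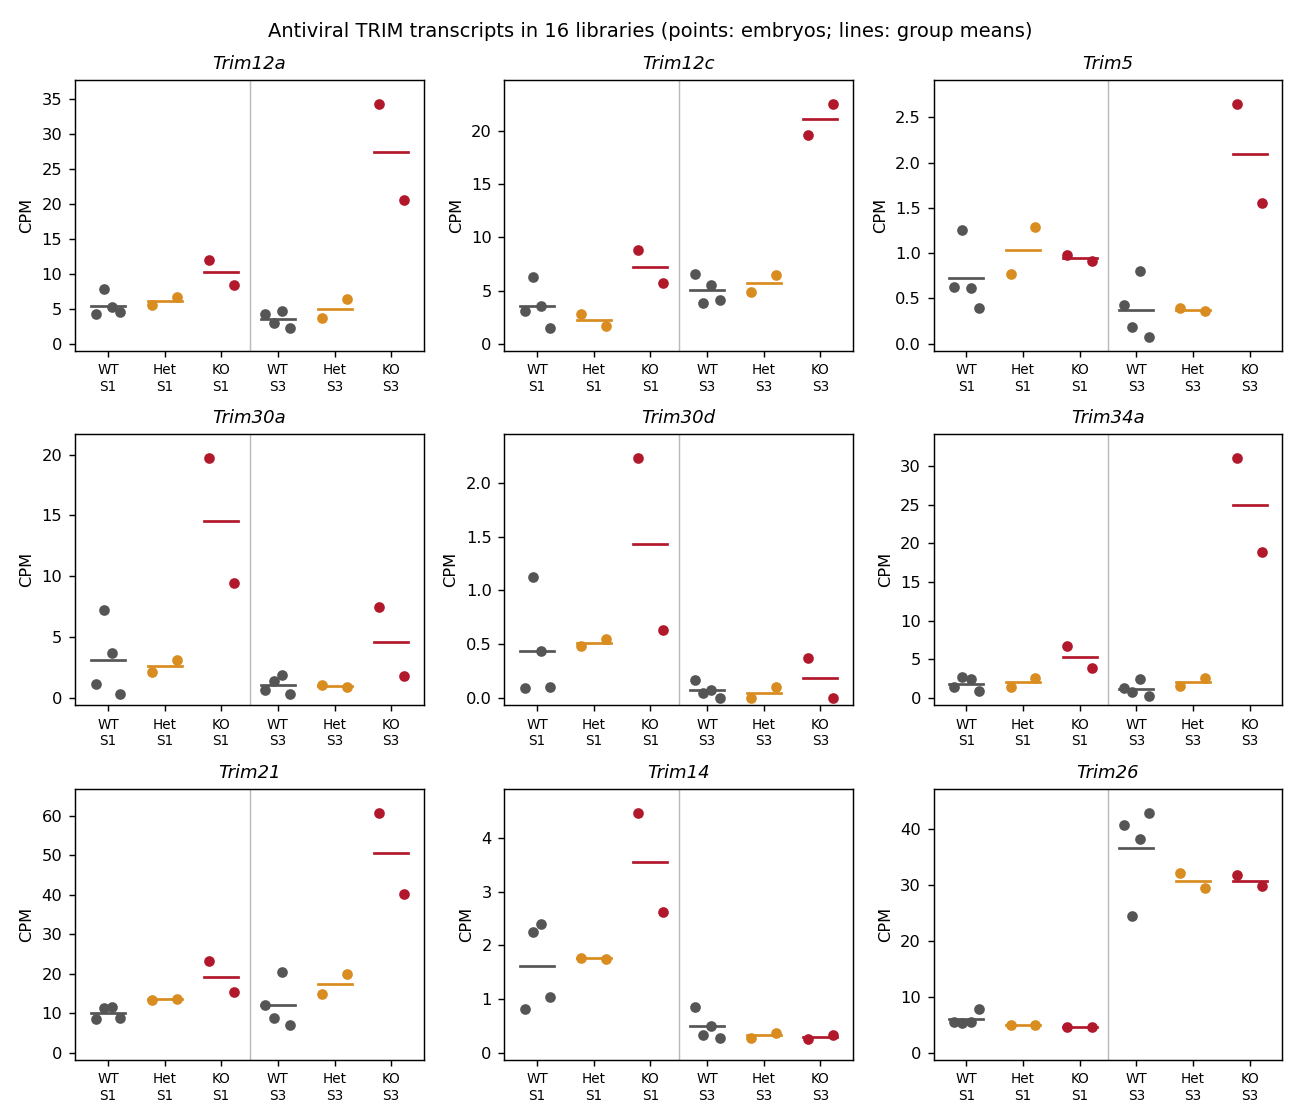
CPM of each member (y axis, linear, own scale per gene) in the 16 libraries by genotype and stage; points are embryos in order of their numbers and lines are group means. The KO S3 points lie above every wild-type and Het S3 point for *Trim12a*, *Trim12c*, *Trim5* and *Trim34a* and *Trim21*, and *Trim26* shows its high values at S3 in every genotype.

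The *Trim5* group was higher in KO erythroblasts at S3. *Trim12a* was at 4.23, 2.9, 4.64 and 2.27 CPM in wild-type embryos 0, 1, 5 and 8, at 3.61 and 6.4 in Het, and at 34.3 and 20.6 in KO embryos 2 and 9. KO did not overlap with either other genotype, and the log2 fold change over wild type was 3.01 (SE 0.29). For *Trim12c* the wild-type range was 3.83 to 6.59 CPM, Het libraries were at 4.89 and 6.5, and KO libraries at 19.7 and 22.6 (log2 fold change 2.13, SE 0.23). *Trim5*, the least counted of the group, had 10, 4, 21 and 1 read pairs in the wild-type S3 libraries, 7 in each Het library and 43 and 29 in KO. Its wild-type mean of 7.32 normalised counts is under the minimum of 10, so it was tested only because of the KO libraries (log2 fold change 2.46, SE 0.65).

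At S1 these 3 genes had smaller fold changes, a difference between stages that was not tested. *Trim12a* was at 4.18 to 7.82 CPM in wild type, 5.48 and 6.61 in Het, and 12 and 8.45 in KO (log2 fold change 0.93, SE 0.30), again with no overlap. *Trim12c* KO values of 8.78 and 5.74 CPM overlapped the wild-type range of 1.5 to 6.3, while both Het values (2.8 and 1.69) were below KO. *Trim5* did not separate the genotypes at S1: KO was at 0.982 and 0.908 CPM, inside the wild-type range of 0.39 to 1.26.

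*Trim34a* had the greatest difference of the 9. Wild-type S3 libraries held 1.31, 0.748, 2.45 and 0.207 CPM for embryos 0, 1, 5 and 8, Het libraries 1.61 and 2.61, and KO libraries 31 and 18.9. The log2 fold change was 4.38 (SE 0.55), a 20.9-fold difference, which ranked 14 from the top among 11804 genes. At S1 its KO values of 6.75 and 3.84 CPM also lay above the wild-type range of 0.945 to 2.67 and above the Het values of 1.46 and 2.61 (log2 fold change 1.52, SE 0.44). Because pairs shared with *Trim34b* were not counted, the level rests on the stretches that are particular to *Trim34a*; *Trim34b* itself had 0 to 2 pairs in wild-type and Het libraries and 1 to 10 in KO.

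*Trim21* was the most abundant member in KO at both stages. At S3 wild-type embryos 0, 1, 5 and 8 were at 12.1, 8.74, 20.3 and 7.1 CPM, Het embryos 3 and 4 at 14.8 and 19.9, and KO embryos 2 and 9 at 60.8 and 40.2 (log2 fold change 2.12, SE 0.36). The Het values fell inside the wild-type range and KO lay above both. At S1 the 3 genotypes took an order without overlap, with wild type at 8.62 to 11.5 CPM, both Het libraries at 13.4 or more, and KO at 23.1 and 15.3 (log2 fold change of KO over wild type 0.93, SE 0.24). *Trim21* shares no 150-base stretch with another gene, so this pattern does not depend on how copies were counted.

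The *Trim30* copies had their highest mean level at S1 in each genotype. *Trim30a* was at 1.19, 7.24, 3.67 and 0.349 CPM in wild-type S1 embryos 0, 1, 5 and 8, at 2.15 and 3.1 in Het, and at 19.7 and 9.46 in KO (log2 fold change 2.25, SE 0.89). KO lay above all 4 wild-type libraries, and those 4 spread over a wider range than the wild-type S1 libraries of any other member. At S3 *Trim30a* was at 0.345 to 1.92 CPM in wild type, 0.87 and 1.11 in Het, and 7.46 and 1.82 in KO when scaled over all 16 libraries. In the scaling of the KO and wild-type S3 libraries alone the KO values did not overlap with wild type (log2 fold change 2.12, SE 0.65), although KO embryo 9 had only 34 read pairs and wild-type embryo 5 had 50. *Trim30d* was low throughout: at S1 it had 3 to 45 pairs in wild type, 23 and 19 in Het and 91 and 30 in KO (log2 fold change 1.71, SE 0.92, groups overlapping). At S3 it had 4, 1, 2 and 0 pairs in wild type, 0 and 2 in Het and 6 and 0 in KO, and was not tested; a count of 0 allows up to 3 counts, or 0.16 to 0.207 CPM in those libraries, for counting error only.

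*Trim14* and *Trim26* did not follow the others at S3. *Trim14* was higher in KO at S1 alone, where KO was at 4.47 and 2.62 CPM, wild type at 0.812 to 2.39 and Het at 1.76 and 1.75 (log2 fold change 1.14, SE 0.48). At S3 its highest library held 20 pairs and KO had 4 and 6, so it was not tested. *Trim26*, for all that its promoter holds the ISRE core, was slightly lower in KO than in wild type at S1 (4.56 and 4.65 against 5.22 to 7.72 CPM, log2 fold change -0.37, SE 0.28) and overlapped with wild type at S3 (31.7 and 29.8 against 24.4 to 42.9 CPM, log2 fold change -0.20, SE 0.24).

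Over the 9 members, 6 lay above wild type without overlap at S3, against 9.63% of the 11804 genes tested, and 5 at S1, against 6.85% of 14039; 1, *Trim26*, lay below at S1, against 3.34%, and 0 at S3, against 8.92%. These counts describe the values by which the genes were chosen, and nothing is read from them. *Trim30d* and *Trim14* did not pass the filter at S3, and *Trim5* passed it only through KO. The median log2 fold change was 2.13 over the 7 members that passed at S3 and 1.04 over the 9 at S1, beside 0.01 and -0.01 over all genes tested. In the same fits of the whole table edgeR called 0.457% of genes higher and 0.102% lower in KO at S3, and 0% higher and 0.00712% lower at S1. KO against Het shares the KO libraries and gave a median of 2.20 at S3 (7 members) and 1.02 at S1 (9 members).

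**Figure D3:**
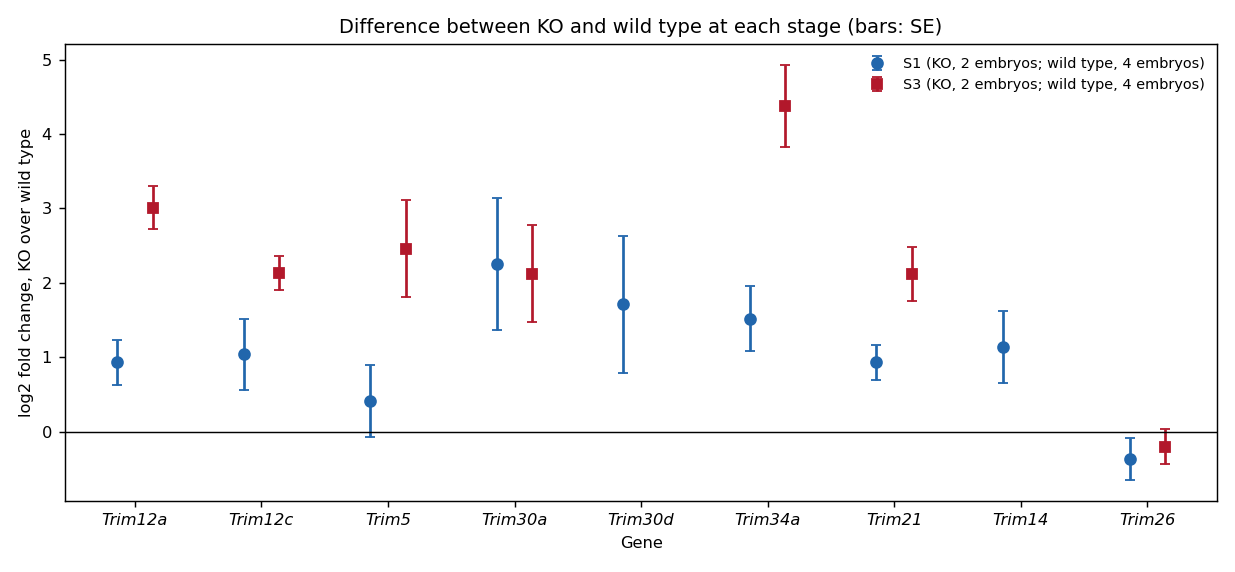
Log2 fold change of KO over wild type (y axis, bars are SE) for each member at S1 (circles) and S3 (squares), from 2 KO and 4 wild-type libraries at each stage. *Trim34a* reaches 4.38 at S3 and 1.52 at S1, and *Trim26* lies below 0 at both stages; *Trim30d* and *Trim14* have no S3 point because they were not tested there.

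Transcripts of other cell types differed among the S1 libraries. The sort protocol names CD71 and Ter119 alone, while the antibody panel listed by the study for foetal liver erythroid cells also holds CD11b, Gr1, B220, CD90 and NK1.1, which mark myeloid, B, T and natural killer cells and would remove them where gated out; whether they were used in this sort is not given in the sources used here. *Trim30a*, *Trim30d*, *Trim14*, *Trim12a*, *Trim34a* and *Trim21* were at their lowest among S1 libraries in wild-type embryos 0 and 8, the libraries with few neutrophil transcripts. Summed over 11 markers, neutrophil transcripts ranged from 116 to 1383 CPM in wild type, 1569 to 1576 in Het and 1629 to 1709 in KO at S1, with *Ly6g* at 0 throughout, and 11 lymphoid and plasmacytoid dendritic cell markers from 32.8 to 96.4, 76.6 to 78.8 and 88.8 to 89.6. The sum of 15 macrophage markers was higher in KO at S1 (70.3 and 71.6 CPM) than in wild type (31.9 to 58.8) and Het (37 and 54), without overlap. With wild-type embryos 0 and 8 left out, the log2 fold change of KO over wild type at S1 was 1.43 for *Trim30a*, 0.87 for *Trim30d* and 0.62 for *Trim14*. It was 1.06 for *Trim34a*, 0.75 for *Trim21* and 0.67 for *Trim12a*. *Trim12c* was at 0.58, *Trim5* at 0.03 and *Trim26* at -0.20. Each was nearer to 0 than with all 4 wild-type libraries, and the median was 0.67 in place of 1.04. Embryos 0 and 8 are also the wild-type males, and the part of sex or of these cells in the result was not tested. The Het libraries, with neutrophil sums of 1569 to 1576 CPM, held *Trim30a* at 2.15 and 3.1 CPM against 9.46 and 19.7 in KO. At S3 the neutrophil sum was 1.54 and 12.9 CPM in KO, 1.11 to 4.77 in wild type and 1.13 to 2.56 in Het. The lymphoid and plasmacytoid dendritic cell sum was higher in KO (9.06 and 11.5 CPM) than in wild type (3.45 to 6.64) and Het (5.67 to 6.04), without overlap, with *Pax5*, *Cd79a*, *Siglech*, *Cd3g* and *Cd3e* at 0 in KO. The sum of 15 macrophage markers was lower in KO (24.6 to 37.4 CPM) than in wild type (50.8 to 106) and Het (50.2 to 73), as was that of the erythroblast markers (115719 to 119632 against 132210 to 151072). Their part in the S3 differences was not tested.

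**Figure D4:**
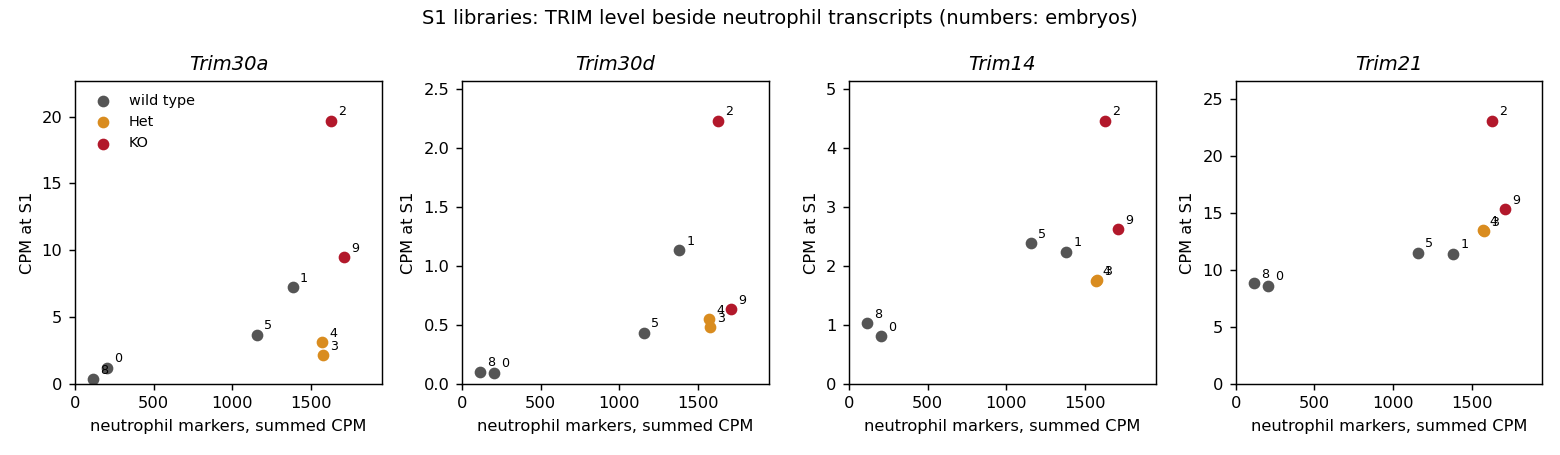
CPM of *Trim30a*, *Trim30d*, *Trim14* and *Trim21* (y axes, linear from 0) against the summed CPM of 11 neutrophil markers (x axis) in the 8 S1 libraries, each point labelled by embryo. Wild-type embryos 0 and 8 sit at 205 and 116 CPM on the x axis and at the low end of all 4 genes, while Het embryos 3 and 4 (1569 to 1576 CPM) lie next to KO embryos 2 and 9 (1629 to 1709 CPM) on the x axis and below them on the y axis.

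Whether loss of 1 *Nprl3* allele altered the members was asked with the Het libraries, against the same wild-type libraries that served in choosing the genes. No member was called at either stage: 0 of 9 at S1 and 0 of 6 at S3 in either direction by edgeR and by DESeq2, and 0 had an unadjusted p under 0.05 in edgeR. Over all genes edgeR called 0% higher and 0% lower at both stages, with 589 genes at S1 and 373 at S3 under an unadjusted p of 0.05. In the same edgeR fit at S1 *Nprl3* itself was not called (log2 fold change -1.07, SE 0.24, adjusted p = 0.905). Both Het libraries (12.7 and 13 CPM) lay below its wild-type range of 22.6 to 32.6 CPM. The lack of calls therefore does not show that the members were unaltered. *Trim21* was the nearest to a difference at S1, where Het lay above wild type without overlap (1 of 9 members above, against 9.28% of 13818 genes; log2 fold change 0.41, SE 0.20, adjusted p = 0.905; log2 fold change 0.24 without embryos 0 and 8, also not passing). *Trim26* was the 1 of 9 below wild type without overlap at S1, against 9.05% of genes (4.85 and 4.87 against 5.22 to 7.72 CPM; log2 fold change -0.30, SE 0.27, adjusted p = 0.905; -0.13 without embryos 0 and 8). At S3, 0 of 6 lay above wild type, against 6.26% of 11746 genes, and 0 below, against 6.69%, and the highest values were 0.85 (SE 0.63, adjusted p = 0.901) for *Trim34a*, 0.58 (SE 0.36, adjusted p = 0.901) for *Trim21* and 0.57 (SE 0.34, adjusted p = 0.901) for *Trim12a*. *Trim5*, *Trim14* and *Trim30d* were not tested at S3. Both Het embryos are male, and with sex as a covariate the *Trim30a* log2 fold change at S1 was 1.79 in place of -0.21, with an adjusted p of 0.142. The male wild-type embryos are 0 and 8, so that fit rests on the S1 libraries that stood apart. Without those libraries the wild type is female only, and the value was -1.05 (adjusted p = 0.827). Sex and the make-up of these libraries cannot be told apart here.

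Maturation was not the contrast that chose the genes, although its wild-type libraries were part of that contrast. In wild type it moved 2 of the 8 members tested. *Trim26* rose in 4 of 4 embryos, from 5.4, 5.22, 5.5 and 7.72 CPM at S1 to 40.7, 24.4, 38.2 and 42.9 at S3 in embryos 0, 1, 5 and 8, a log2 fold change of 2.68 (SE 0.24, adjusted p = 5.71e-06). *Trim14* fell by 1.63 on the log2 scale (SE 0.49, adjusted p = 0.0132), with lower values at S3 in 3 of 4 embryos. So 1 of 8 rose and 1 of 8 fell, against 30.6% and 35% of the 13514 genes tested, and the median log2 fold change was -0.56 beside -0.08 over all genes. Without the S1 libraries of embryos 0 and 8 both calls held, with *Trim26* at 2.86 (adjusted p = 1.12e-05) and *Trim14* at -2.11 (adjusted p = 0.00163). *Trim30a*, which had lower values at S3 in 4 of 4 embryos, did not pass (log2 fold change -1.44, SE 0.80, adjusted p = 0.139). Its call depended on the setting: it passed with the embryo as a block (-1.16, adjusted p = 0.0308), which makes 2 lower, without the S1 libraries of embryos 0 and 8 (-2.20, adjusted p = 0.00324) and without that of embryo 8 alone (-1.77, adjusted p = 0.0286), but was at -0.6 (adjusted p = 0.493) without that of embryo 1. *Trim12c* (0.56, SE 0.39, adjusted p = 0.233) was at 0.95 (adjusted p = 0.0264) without the S1 library of embryo 1 and at 0.13 (adjusted p = 0.734) without those of embryos 0 and 8.

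In Het embryos, whose libraries are not in the contrast between KO and wild type, 6 of 8 members tested changed from S1 to S3. *Trim26* rose from 4.87 and 4.85 to 32.1 and 29.4 CPM (log2 fold change 2.78, SE 0.17, adjusted p = 5.6e-14), *Trim12c* from 2.8 and 1.69 to 4.89 and 6.5 CPM (1.45, SE 0.27, adjusted p = 3.71e-05), and *Trim21* by 0.49 on the log2 scale (SE 0.17, adjusted p = 0.013). *Trim14* fell by 2.32 (SE 0.47, adjusted p = 7.75e-05), *Trim30a* by 1.28 (SE 0.36, adjusted p = 0.00226) and *Trim5* by 1.32 (SE 0.52, adjusted p = 0.0246). Thus 3 of 8 rose, against 36.3% of 13085 genes, and 3 of 8 fell, against 39.6%. The calls of *Trim5*, *Trim21* and *Trim30a* were lost under other settings, *Trim30a* in the fit of all 16 libraries (adjusted p = 0.311), *Trim5* among others with DESeq2 (adjusted p = 0.149), without the S1 library of embryo 4 and without either S3 library (0.167, 0.0657 and 0.0898), and *Trim21* among others without the S3 library of embryo 4 (0.322).

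In KO embryos the maturation comparison uses the KO libraries on which the genes were chosen, so its values are described without a test; over all 13446 genes edgeR called 24.7% higher and 28.4% lower at S3. *Trim34a* went from 6.75 and 3.84 CPM at S1 to 31 and 18.9 at S3 in embryos 2 and 9 (log2 fold change 2.32, SE 0.37). The log2 fold change was 1.64 (SE 0.28) for *Trim12c*, 1.51 (SE 0.31) for *Trim12a*, 1.48 (SE 0.28) for *Trim21* and 1.23 (SE 0.45) for *Trim5*, and for each of them both S3 libraries lay above both S1 libraries. *Trim26* was at 2.83 (SE 0.20), close to its value in the other genotypes. *Trim14* was at 4.47 and 2.62 CPM at S1 and at 0.247 and 0.321 at S3 (log2 fold change -3.52, SE 0.52), *Trim30a* at a log2 fold change of -1.58 (SE 0.67) and *Trim30d* at -2.90 (SE 1.22). *Trim14* and *Trim30d*, with mean normalised counts of 9.13 and 5.83 at S3 against 107 and 43.1 at S1, were under the minimum of 10 at S3 and passed the filter only through their S1 libraries. The value of *Trim30a* rested on single libraries, at -2.88 without S3 embryo 2 and -0.88 without S3 embryo 9. So did that of *Trim30d*, at -8.64 without S3 embryo 2, where the S3 library left held 0 pairs, and at -1.85 without S3 embryo 9.

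Within embryos, *Trim34a* changed from S1 to S3 by 2.19 and 2.28 log2 units in KO embryos 2 and 9, by 0.13 and -0.00 in Het embryos 3 and 4, and by -0.07, -1.75, 0.00 and -1.89 in wild-type embryos 0, 1, 5 and 8. *Trim21* changed by 1.40 and 1.39 in KO, by 0.14 and 0.56 in Het, and by 0.48, -0.38, 0.81 and -0.31 in wild type. For *Trim12a* the KO embryos were at 1.51 and 1.28, Het at -0.59 and -0.05, and wild type between -1.41 and 0.01. For these 3 genes the KO embryos lay above every other embryo. *Trim26* did not split the genotypes in this way, and its change ran from 2.21 to 2.90 in wild type, with both Het and both KO embryos (2.66 and 2.78) inside that range. The differences in change between genotypes were not tested, because they hold the contrast that chose the genes.

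**Figure D5:**
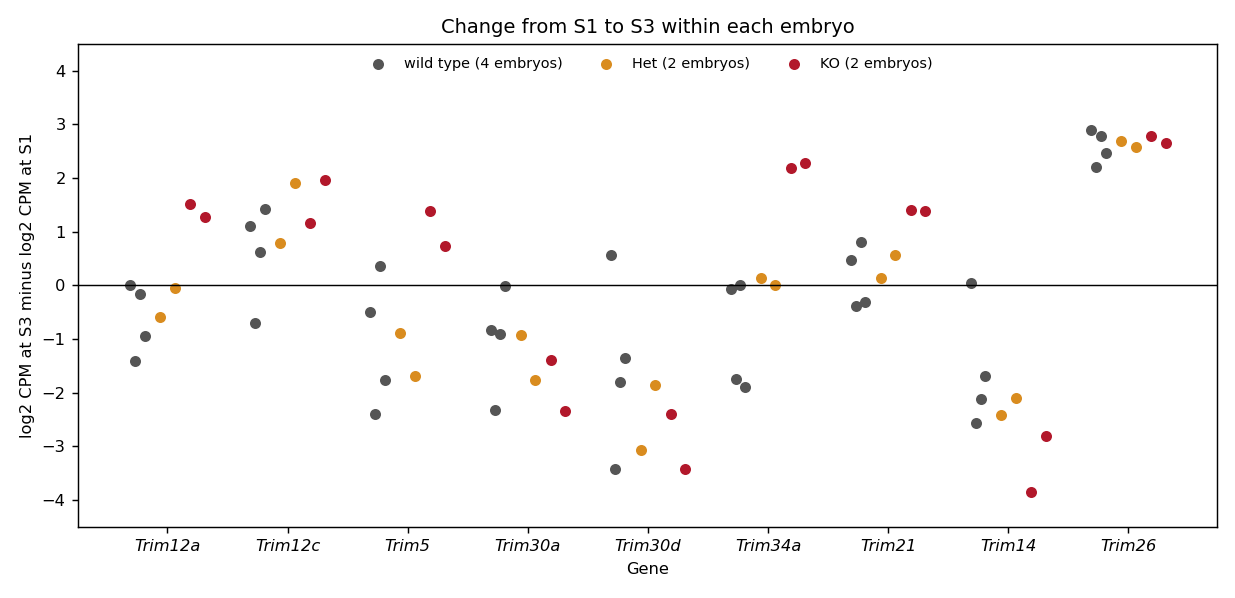
Difference in log2 CPM between the S3 and S1 library of the same embryo (y axis) for each member, with wild-type embryos in grey, Het in orange and KO in red. KO points lie highest for *Trim12a*, *Trim34a*, *Trim5* and *Trim21*, all points of *Trim26* lie between 2.21 and 2.90, and all points of *Trim30a* lie below 0.

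The members rank together across the 16 libraries to an unequal degree. All correlations here used the log2 CPM of each gene minus its mean over the 8 libraries of the stage, so they leave out the mean change between stages. As a description over libraries that share genotypes and stages, the Pearson correlation of a member with the mean of the other members was 0.91 for *Trim21*, 0.90 for *Trim12a* and *Trim34a*, 0.85 for *Trim12c* and *Trim5*, 0.83 for *Trim30a*, 0.67 for *Trim30d*, 0.36 for *Trim14* and -0.46 for *Trim26*. Over the 8 wild-type libraries alone it was 0.60 for *Trim14*, -0.30 for *Trim26* and between 0.71 (*Trim30a*) and 0.86 (*Trim5*) for the others. The closest pairs were *Trim34a* with *Trim21* and with *Trim12a*, both at 0.97, and *Trim34a* lies on another strand of its cluster than *Trim12a* and far from *Trim21*. *Trim30a* and *Trim30d*, with identical stretches around the motif, were at 0.79. Among 13393 other genes, 108 had a correlation over 0.8 with the mean profile of the 9 members, and the 5 most alike were *Tgtp2* (0.97), *Oas1a*, *Sp100* and *Rtp4* (all 0.96) and *Ifitm3* (0.95), each of them in the list of interferon-stimulated genes. That profile was highest in the KO libraries (0.48 to 1.68, against -1.29 to 0.47 elsewhere), whose values chose the members. The list was also chosen with earlier results known, so this likeness is no independent support.

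Other genes of the pathway place these values, although their lists were also chosen with earlier results of these data known. The counts of calls in these lists are therefore not independent of the contrast. At S3, 20 of 41 tested interferon-stimulated genes were called higher in KO than in wild type and 0 lower, beside 0.457% and 0.102% of all genes, with a median log2 fold change of 2.42; among them *Isg15*, a ubiquitin-like modifier, was at 4.69 (SE 0.49, adjusted p = 0.0133) and *Rsad2*, which encodes viperin, at 3.86 (SE 0.44, adjusted p = 0.0153). The count rested on single libraries: it was 1 without wild-type embryo 0, 6 without embryo 1, 0 without embryo 8 and 3 without KO embryo 2, with medians of 1.75 to 2.69 over the fits that each left out 1 library, which were added after the data were seen. *Isg15* did not pass without wild-type embryo 8 (adjusted p = 0.0554), nor *Rsad2* without embryo 0 or 8 (0.0689 and 0.0681). At S1, 0 of 47 were called, by edgeR, with a median of 1.47, and 0 of 50 with a median of 1.05 without wild-type embryos 0 and 8. Of the 20 tested genes for interferons, receptors and signal transduction, 4 were called higher at S3, among them *Irf9* at 1.39 (SE 0.22, adjusted p = 0.0392) and *Irf7* at 2.81 (SE 0.45, adjusted p = 0.0419). Without wild-type embryo 0, 1 or 8 or KO embryo 2, 0 or 1 of the 20 were called; *Irf7* did not pass in these 4 fits (adjusted p of 0.0802 to 0.178), nor *Irf9* in these and without KO embryo 9 (0.0901 to 0.158). *Irf7* was at 30.4 to 94.5 CPM in wild type, 65.7 to 114 in Het and 217 to 486 in KO. Of 20 tested partners of TRIM proteins, such as the ubiquitin enzymes and TAB proteins they act with, 0 were called in KO against wild type at S3 in edgeR, with a median of 0.01.

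Few other TRIM genes were called between KO and wild type. Of 21 tested at S3, 1 was called higher, *Trim25*, the RIG-I ubiquitin ligase (log2 fold change 1.02, SE 0.15, adjusted p = 0.0351), and 0 lower, with a median of -0.01 over the 21; *Trim25* passed when wild-type embryo 5 was left out (adjusted p = 0.0468) and not when any of the other 5 libraries was (0.0629 to 0.194). Within the cluster, *Trim30b*, which lies between *Trim12c* and *Trim30a*, had 13 and 16 read pairs in the KO S3 libraries and at most 1 in any wild-type or Het S3 library. *Trim6*, next to *Trim34a*, had 23 to 82 pairs at S1 and 0 to 3 at S3 over all genotypes, and was called lower at S3 in wild type, Het and KO (adjusted p = 0.000429, 2.05e-06 and 0.0128). The promoters of *Trim6*, *Trim30c* and *Trim34b* held no ISRE core. Neither did the window listed for *Trim30b*, chr7:104007804-104008103, which lies inside the gene and away from its annotated start at 104019091. From S1 to S3 in wild type, 7 of 27 other TRIM genes tested rose and 12 fell, beside 30.6% and 35% of all genes, or 10 and 10 of 26 without the S1 libraries of embryos 0 and 8; *Trim59* rose by 3.40 (SE 0.22, adjusted p = 8.55e-07), and *Trim28*, a transcriptional co-repressor, fell by 2.43 (SE 0.14, adjusted p = 4.75e-07).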

How the data were processed

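The data were 16 RNA-seq libraries of sorted mouse foetal liver erythroblasts. Per the labels and methods, RNA was amplified with SMARTer chemistry, enriched for poly(A), sequenced in pairs, aligned to mm39 with STAR (2.7.9) and counted per gene with featureCounts (1.6.4) on Ensembl 104, without strand and without multi-mapping pairs. The authors deposited raw counts, and 4 library columns of the table were not used. The labels' source field names an embryonic stem cell line, whereas titles and protocol give sorted foetal liver cells; the latter were taken. Symbols came from GENCODE release 39 for 54749 of 55416 genes.

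Counts were tested with edgeR (4.0.16; R 4.3.3) quasi-likelihood fits on the 2 groups compared, with TMM scaling, genes over a mean of 10 normalised counts, and Benjamini-Hochberg adjustment over all genes at a threshold of 0.05. CPM used TMM over 16 libraries; log2 CPM used a prior count of 2. The members and gene lists were chosen with earlier results of these data known; members are described without a test wherever KO libraries enter. The text names all members, *Nprl3*, cluster neighbours, up to 3 genes per list and comparison by p, and the 5 genes most alike. Alternatives were DESeq2 (1.42.0), other scalings and filters, sex, all libraries, leaving out libraries, and the embryo as a block. Libraries with one number come from the same embryo; deviations of the 2 libraries from their group means correlated at 0.07 to 0.42 over 13402 genes (0.05 for the Het pair). Scripts were tested on simulated data.

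Embryos are separate animals, and p-values of the genotype comparisons measure the spread between them. The main maturation fits took the S1 and S3 libraries of an embryo as separate. Their p-values therefore do not measure the spread of the change within embryos, and only the fits with the embryo as a block use the pairing. With 2 KO or Het embryos that spread is poorly known. 1 gene of the interferon pathway list is not reported here.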

Additional observations from a re-analysis of the deposited data

Results flagged for a closer look

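*Trim26* in the wild-type S1 library of embryo 8 stood apart from the other 3 of its group, at 7.72 CPM against 5.22 to 5.5, a gap of 0.889 of the range of the 4 libraries; 18 groups of 4 values were examined this way, and chance sets apart about 1 in 20. From S1 to S3, *Trim12a* moved down in both Het embryos (mean log2 change -0.32) and up in both KO embryos (mean 1.40). *Trim5* did the same, with means of -1.28 in Het and 1.05 in KO. These differences between genotypes were not tested.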

How the results depend on the processing

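The medians of KO over wild type and KO over Het kept their sign under every alternative run. The members were chosen by KO and wild-type values of these libraries, so the kept sign is no independent check. Without single libraries the medians ranged from 0.66 to 1.32 (S1) and 2.03 to 2.78 (S3) over wild type and from 0.51 to 1.35 and 1.99 to 2.74 over Het. *Trim26* and *Trim14* kept their calls under every alternative in the maturation comparisons of wild type and Het. Members lower at S3 in wild type were 2 instead of 1 with upper-quartile scaling, with no filter, with the replicate block and without the S1 libraries of embryos 0 and 8, and ranged from 1 to 2 without single libraries, as did members higher. In Het, members lower were 1 instead of 3 in the fit of all 16 libraries, and without single libraries both counts ranged from 2 to 3. The replicate block changed no other call. The cause was not tested.

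Of single members that did not pass, signs reversed as follows. Without the wild-type S1 libraries of embryos 0 and 8, Het over wild type at S1 was -0.1 for *Trim12a*, -0.6 for *Trim30d*, -0.33 for *Trim34a* and -0.39 for *Trim14*. With sex as a covariate, *Trim30a* in Het over wild type was 1.79 at S1 and 0.98 at S3. Embryos 0 and 8 are the wild-type males, so at S1 these settings are not separate checks. Without single libraries, Het over wild type at S1 ranged from -0.63 to 0.6 for *Trim30a*, -0.14 to 1.26 for *Trim30d*, -0.34 to 0.49 for *Trim34a* and -0.09 to 0.38 for *Trim14*, and at S3 from 0 to 0.45 for *Trim12c* and -0.33 to 0.35 for *Trim30a*; from S1 to S3 it ranged from -0.04 to 0.5 for *Trim21* in wild type, and in Het from -0.6 to 0.23 for *Trim12a* and -0.22 to 0.59 for *Trim34a*.

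Upper-quartile scaling moved the median log2 fold change of all genes from S1 to S3 from -0.08 to -0.24 in wild type, -0.05 to -0.20 in Het and -0.09 to -0.28 in KO. Over all genes, KO over wild type at S3 gave 54 higher and 12 lower, but 144 and 115 with DESeq2, 219 and 137 with no filter, 285 and 262 with sex as a covariate, 35 and 7 with upper-quartile scaling, 84 and 31 with the Het libraries in the fit, 88 higher with all 16 libraries, and 9 to 41 and 0 to 5 without single libraries; at S1 it gave 0 and 1, but 37 and 8 with DESeq2, 5 and 2 with no filter, 18 and 3 with sex as a covariate, 1 higher with all 16 libraries, 2 lower without wild-type embryos 0 and 8, and 0 to 1 and 0 to 2 without single libraries. Het over wild type gave 0, but 183 and 214 at S1 and 1038 and 1086 at S3 with sex as a covariate, 30 lower at S1 and 1 lower at S3 with DESeq2, 5 and 52 at S3 with no filter, 4 and 1 at S1 without wild-type embryos 0 and 8, and 0 to 3 higher at S3 without single libraries; members called stayed at 0. Depth limits *Trim30d*, *Trim5* and *Trim14* at S3, where libraries held as few as 0, 1 and 4 pairs.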
